A study of Glycine max with 12 samples.

Results

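The genes described here are the soybean genes that stood moderately higher in seeds of all 3 overexpressor genotypes than in wild-type seeds. There were 84 of them among 47095 genes. They were chosen from the same counts that are reported below: with levels in CPM (a gene's count scaled to a common library total), a gene was kept when its mean in each overexpressor was at least 2-fold the wild-type mean, with 0.05 CPM added to each mean, and when at least 1 of these folds stayed under 8. Every overexpressor mean also had to reach 2 CPM, and the lowest of the 9 overexpressor libraries had to lie above the highest of the 3 wild-type libraries. The rule kept 92 genes, and 8 known seed protein and lipoxygenase genes among them were left out (KTI1, GY1, GY2, GY4, CG-1, Glyma.20G148300, LOX2 and LOX3). Each of the 84 passed the filter on low counts, which kept 34252 genes for testing.

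Seeds of soybean (Glycine max) were sampled at the stage labelled H3, a term the labels do not define. There were 3 libraries of the wild type, the cultivar Jack, and 3 of each transgenic genotype, overexpressing GmZF351, GmZF392 or GmNFYA. The labels give no further treatment, no promoter and no count of plants. The 3 library titles of an overexpressor share a code, so they may come from a single transgenic line, and effects of such a line and of the overexpressed gene cannot be told apart. Nothing says that libraries came from separate plants, so p-values measure only the spread between these libraries, which may be technical.

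GmZF351 and GmZF392 are CCCH zinc finger proteins and GmNFYA is a subunit of the nuclear factor Y complex, which binds CCAAT sequences; all are known as regulators of soybean seed oil. Maturing seeds accumulate oil and storage proteins under a network of embryo regulators. The members that carry a gene symbol are of several kinds, among them genes known from cold or endoplasmic reticulum stress, ethylene synthesis, nodulation and nematode resistance.

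Libraries held 17809547 to 22652420 counted fragments and 38267 to 39478 detected genes. Each overexpressed locus was highest in its own genotype: GmZF351 stood at 905 ± 108 CPM against 19.0 ± 2.35 in the wild type, GmZF392 at 664 ± 121 against 71.4 ± 4.10, and NF-YA02 at 307 ± 22.8 against 42.5 ± 3.18 (mean ± SD, n = 3). The GmZF351 locus also stood above all wild-type libraries in the other overexpressors, at 40.7 ± 1.44 CPM with GmZF392 and 27.0 ± 2.49 CPM with GmNFYA. The GmZF392 locus had means of 83.2 CPM with GmZF351 and 92.9 CPM with GmNFYA. NF-YA02 had means of 39.7 CPM with GmZF351 and 46.7 CPM with GmZF392. None of these loci is a member. The embryo regulators LEC1-A and LEC1-B ranged from 159 to 225 and from 320 to 392 CPM over the 12 libraries. ABI3-1 and ABI3-2 varied more, from 105 to 238 and from 78.6 to 191 CPM over the libraries. Their group means ran from 168 to 196 and from 116 to 148 CPM. The oleosin genes P89 and P91, for proteins of seed oil bodies, were higher in the overexpressors: P89 had means of 660, 1526, 1444 and 1110 CPM and P91 of 682, 1741, 1388 and 1068 CPM in the wild type, GmZF351, GmZF392 and GmNFYA, and both passed the edgeR test with GmZF351. The part of this shift in the members' levels was not tested. The nodule leghemoglobin genes LB1, LB2 and LB3 had no counts in any library and LB4 reached 0.168 CPM. Of 5 seed coat genes, LAR1, for leucoanthocyanidin reductase, stood at 182 CPM in the wild type and at 20.6 CPM with GmZF351, 25.4 CPM with GmZF392 and 21.6 CPM with GmNFYA. The others did not fall in this way in all 3 overexpressors: the means of ANR1 were 389, 354, 416 and 296 CPM and those of the peroxidase gene PRX2 3023, 3623, 3070 and 2828 CPM, in the order wild type, GmZF351, GmZF392, GmNFYA. ANR2 stayed under 0.340 CPM in every library. SWEET15 had means of 20.4, 21.2 and 18.7 CPM in the wild type and the zinc finger overexpressors and of 10.7 CPM with GmNFYA. Whether a changed share of seed coat had a part in the members' levels was not tested. In such bulk samples, fewer cells of a type and less RNA per cell cannot be told apart.

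Together the 84 genes took 713, 748 and 725 CPM of the wild-type libraries and 2346 to 2942 CPM of the 9 overexpressor libraries. A large part of these sums was 1 gene, Glyma.13G035200. It held 254, 305 and 271 CPM in the wild-type libraries and 929 to 1712 CPM in the overexpressor libraries. Most of the 84 genes were of low abundance in the wild type. The wild-type mean was under 1 CPM for 13, from 1 to under 10 CPM for 53 and 10 CPM or more for 18, with a median of 3.26 CPM. The median fold over the wild type was 2.76 in the GmZF351, 3.03 in the GmZF392 and 3.01 in the GmNFYA overexpressor, and the largest folds were 7.69, 10.2 and 9.89. All 3 folds lay under 3 for 28 members, at 3 or more for 26 and at 4 or more for 10. These values chose the members, so they are a description.

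**Figure D1:**
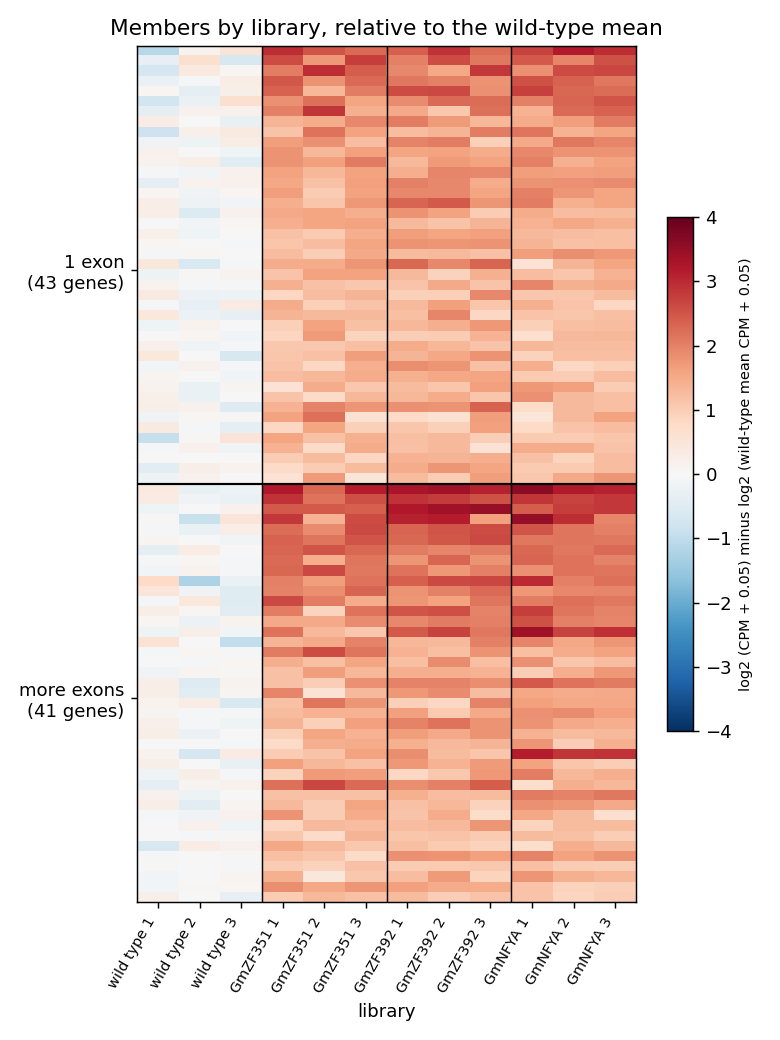
Heat map of the 84 members (rows) in the 12 libraries (columns), as log2 of CPM + 0.05 minus log2 of the wild-type mean + 0.05; red is above and blue below the wild-type mean. The 43 genes with 1 exon are above the black line and the 41 with more exons below it, each ordered by fold. All 9 overexpressor columns are red throughout, as the rule required, and a few rows are darker in one overexpressor than in the others.

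The heat map of members by library shows every member above the wild type in each overexpressor library. In the edgeR fit of all tested genes, 81 members (96.4%) were called higher in the GmZF351 overexpressor, beside 1.13% of all genes tested, 76 (90.5%) in the GmZF392 overexpressor, beside 1.67%, and 72 (85.7%) in the GmNFYA overexpressor, beside 0.966%. The rule used these contrasts, and all 3 share the same wild-type libraries, so nothing is read from the counts. Over all tested genes, 1.69% had all 9 overexpressor values above all 3 wild-type values, and 0.269% met the whole rule before known genes were left out.

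Genes lay close to the fold and level limits on both sides, and less close to the upper limit of 8. The smallest fold of a member was 2.0002 (Glyma.18G247000), followed by 2.004 (Glyma.04G186000) and 2.04 (Glyma.12G142900), and the nearest genes outside had 1.98 (Glyma.18G068800), 1.97 (Glyma.11G067900) and 1.97 (Glyma.07G087200). Against the upper limit of 8, the smallest fold of the highest members was 7.69 (Glyma.01G043951), 5.97 (Glyma.13G153200) and 5.79 (Glyma.09G284500), and that of the nearest genes beyond it 10.04 (Glyma.18G103500), 18.9 (Glyma.03G098600) and 36.7 (Glyma.13G066100). The lowest overexpressor mean was 2.03 CPM in Glyma.06G244302, 2.04 CPM in RJ2 and 2.18 CPM in Glyma.08G158100. It was 1.94 CPM in Glyma.17G047300, 1.88 CPM in WRKY55 and 1.87 CPM in Glyma.01G040600, which stayed outside for that reason. The lowest overexpressor library was 1.09 times the highest wild-type library in Glyma.18G029300, 1.22 times in Glyma.12G142900 and 1.28 times in Glyma.18G109100, with ratios of 0.962, 0.932 and 0.494 in the nearest genes outside.

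Of the 84 genes, 72 were paired with a RefSeq gene and 10 of these carry a symbol; the rest are given by identifier, and nothing is said here of what they encode. Positions are those of the deposited table, annotation Wm82.a4.v1. Of the genes with a symbol, 9 are described here: signalling and stress genes (NRP-A, ACS1, SRC2), transcription factors (SCOF-1, WRKY49), resistance-type genes (RJ2, HS1pro1) and enzymes or wall proteins (ALDH2C8, GER8). Their levels in every library follow, in the order of library 1, 2 and 3.

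NRP-A encodes an asparagine-rich protein known in soybean from endoplasmic reticulum and osmotic stress, where it takes part in cell death signalling. It lies on chromosome 20 from 23328976 to 23332308, minus strand, with 3 exons. Its levels were 8.46, 8.83 and 8.94 CPM in the wild type, 20.2, 18.8 and 15 CPM in the GmZF351, 30.9, 30.5 and 27.2 CPM in the GmZF392 and 34.4, 26.9 and 30.7 CPM in the GmNFYA overexpressor. The GmZF351 libraries lay between the wild-type libraries and those of the other two overexpressors, with no overlap on either side. The related gene NRP-B is no member, with means of 23.1, 27.4, 26.0 and 31.0 CPM in the same order, and did not pass the test in any overexpressor (log2 0.31, 0.16 and 0.45).

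ACS1 encodes a 1-aminocyclopropane-1-carboxylate synthase, which makes the direct precursor of ethylene. It lies on chromosome 5 from 39363713 to 39366632, minus strand, with 4 exons. The wild-type libraries had 6.69, 4.06 and 5.98 CPM, the GmZF351 libraries 13.9, 11.4 and 16.9 CPM, the GmZF392 libraries 12.7, 14 and 10.7 CPM and the GmNFYA libraries 19.7, 18.7 and 16.2 CPM. The GmZF351 libraries overlapped those of both GmZF392 and GmNFYA, and the GmNFYA mean (18.2 ± 1.82 CPM) was the highest. SRC2, a cold-regulated gene whose protein has a C2 domain, was the most abundant of the 9 per kilobase in the wild type (9.44 CPM per kb). It lies on chromosome 15 from 12671329 to 12672938, minus strand, in 1 exon, with 17.3, 13.9 and 14.4 CPM in the wild type, 32.3, 32.3 and 34.7 CPM in the GmZF351, 43.0, 38.1 and 33.3 CPM in the GmZF392 and 38.5, 35.7 and 35.9 CPM in the GmNFYA overexpressor. The overexpressor libraries of SRC2 spanned 32.3 to 43.0 CPM, and those of the GmZF392 overexpressor overlapped those of both GmZF351 and GmNFYA.

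SCOF-1, a cold-inducible C2H2 zinc finger gene of soybean, lies on chromosome 17 from 39225648 to 39227044, plus strand, in 1 exon. It stood at 10.7, 12.8 and 10.8 CPM in the wild type, 25.4, 20.1 and 31.1 CPM in the GmZF351, 41.5, 39.4 and 25.9 CPM in the GmZF392 and 31.7, 20.2 and 22.2 CPM in the GmNFYA overexpressor. The spread within an overexpressor was wide, and the libraries of all 3 overlapped. WRKY49, of the WRKY family of plant transcription factors that bind W-box sequences, lies on chromosome 14 from 47386709 to 47390132, minus strand, with 5 exons. It had 1.5, 1.63 and 1.51 CPM in the wild type, 7.60, 4.36 and 6.93 CPM in the GmZF351, 5.40, 8.03 and 5.55 CPM in the GmZF392 and 7.90, 7.21 and 6.30 CPM in the GmNFYA overexpressor. Its wild-type libraries were tightly grouped and its folds were 3.97, 3.99 and 4.50.

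RJ2 is the soybean gene that restricts nodulation with certain rhizobia; its protein is a receptor of the TIR-NBS-LRR class of plant resistance proteins. It lies on chromosome 16 from 37278712 to 37284327, minus strand, with 5 exons, and was the least abundant of the 9 per kilobase in the wild type (0.121 CPM per kb). It stood at 0.675, 0.574 and 0.391 CPM in the wild type, 2.44, 1.06 and 2.61 CPM in the GmZF351, 3.33, 3.48 and 2.31 CPM in the GmZF392 and 3.98, 2.56 and 2.33 CPM in the GmNFYA overexpressor. Library 2 of the GmZF351 overexpressor was the nearest to the wild type. HS1pro1, named for a nematode resistance gene of sugar beet, lies on chromosome 2 from 46058401 to 46061260, minus strand, in 1 exon. Its wild-type libraries had 1.25, 1.19 and 1.73 CPM, the GmZF351 libraries 4.54, 5.05 and 3.31 CPM, the GmZF392 libraries 5.60, 5.84 and 2.75 CPM and the GmNFYA libraries 4.09, 6.14 and 5.52 CPM. Library 3 of the GmZF392 overexpressor was the lowest of the 9.

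ALDH2C8 belongs to the aldehyde dehydrogenases, which oxidise aldehydes to acids. It lies on chromosome 9 from 42298796 to 42306286, minus strand, with 9 exons, and had 3.53, 4.24 and 4.02 CPM in the wild type, 8.94, 12.7 and 9.92 CPM in the GmZF351, 10.9, 10.8 and 10.3 CPM in the GmZF392 and 7.90, 10.7 and 13.3 CPM in the GmNFYA overexpressor. Its 3 overexpressor means were close, at 10.5, 10.7 and 10.6 CPM. GER8, a germin-like gene (germins are cell wall glycoproteins), lies on chromosome 7 from 3185677 to 3186868, plus strand, in 1 exon. It stood at 1.35, 1.02 and 0.614 CPM in the wild type, 2.20, 2.29 and 3.31 CPM in the GmZF351, 2.62, 2.98 and 3.61 CPM in the GmZF392 and 1.94, 2.35 and 2.33 CPM in the GmNFYA overexpressor. Here the highest wild-type and the lowest overexpressor library were 1.35 and 1.94 CPM, a narrow gap.

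**Figure D2:**
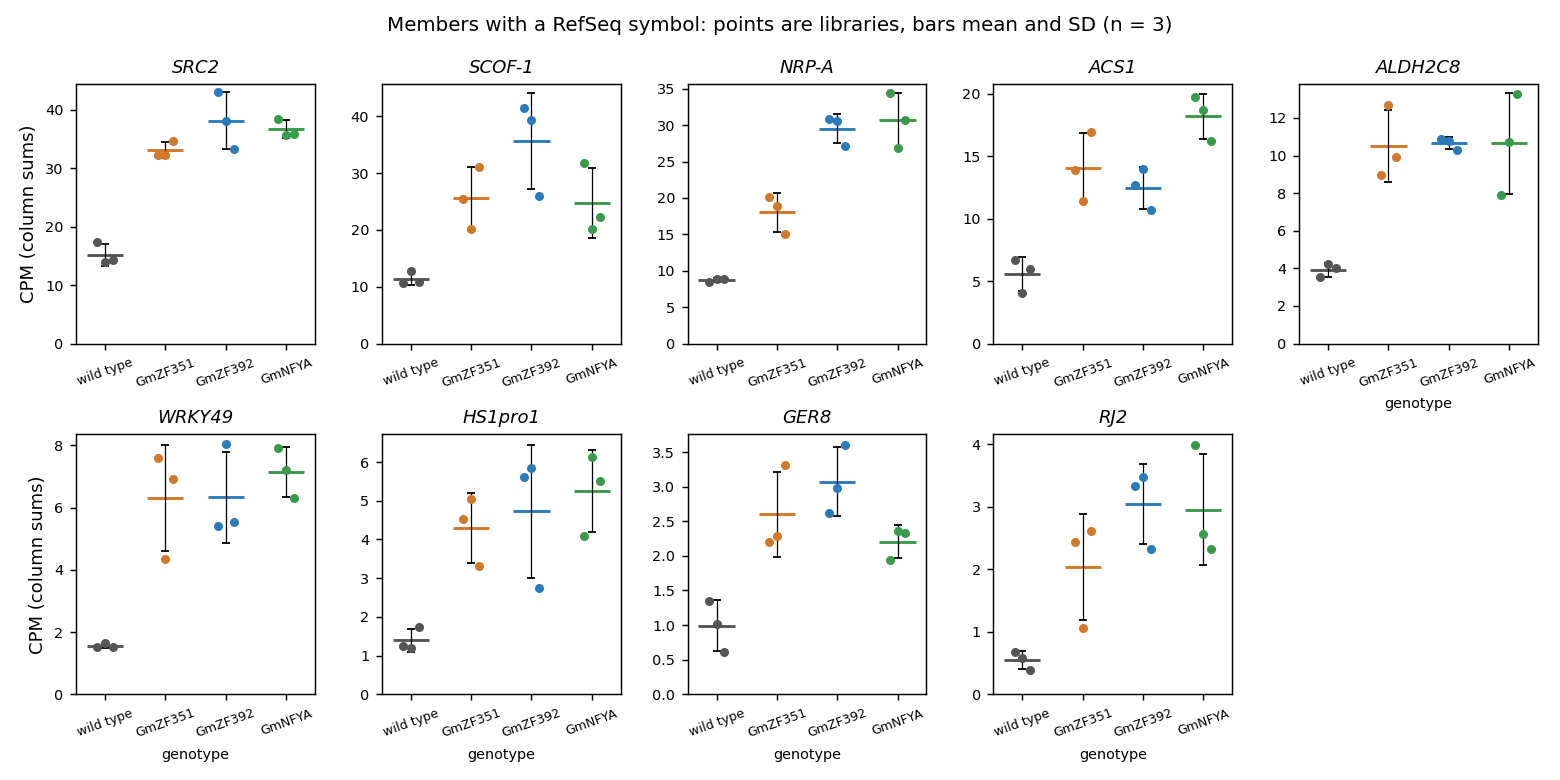
CPM of 9 members with a RefSeq symbol, by genotype (overexpressors named for their gene); points are libraries, bars are the mean and SD of 3 libraries, and each panel has its own axis starting at 0. In all panels the wild-type points lie below every overexpressor point; NRP-A is lower in the GmZF351 overexpressor than in the other two, and ALDH2C8 has nearly equal means.

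Other genes of the same families were set beside all genes, of which 1.13%, 1.67% and 0.966% rose and 1.05%, 0.528% and 0.599% fell with GmZF351, GmZF392 and GmNFYA. The WRKY family had 39 tested genes with a symbol; 3 rose in the GmZF351, 4 in the GmZF392 and 5 in the GmNFYA overexpressor and none fell, with medians of log2 0.33, 0.29 and 0.27 beside 0.01, -0.01 and -0.01 over all genes. Besides WRKY49, WRKY47 rose in all 3, from 10.3 ± 1.92 CPM to 17.3 ± 1.07, 19.3 ± 2.37 and 21.2 ± 1.69 CPM (n = 3; log2 0.82, 0.88 and 1.05, edgeR adjusted p = 0.0169, 0.0089 and 0.00347). WRKY55 rose from 0.402 ± 0.101 CPM to 1.88 ± 0.357, 2.74 ± 0.629 and 2.38 ± 0.407 CPM. WRKY39 rose in the GmZF392 and GmNFYA overexpressors and WRKY5 in the GmNFYA overexpressor. Of 41 aldehyde dehydrogenase genes, 1, 2 and 1 rose and 1 fell in each overexpressor: ALDH2B2 rose with GmZF392, ALDH12A2 fell with both zinc finger genes and ALDH3J3 fell with GmNFYA. GER10, the other germin-like gene tested, had log2 differences of 0.11, 0.32 and 0.19 and did not pass. These families were put together after the members were known.

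Against the same shares of all genes, counts are also given for lists of other genes. None of 15 lists of seed and stress genes held a member, and for the list of storage proteins the rule itself fixed this. The lists hold only genes with a symbol, and only 10 of the 84 members carry one. The members without a symbol could not appear in any list, so nothing is read from their absence. The 24 late embryogenesis abundant genes, which protect drying seeds, had 3 that rose in the GmZF351 overexpressor and none in the others, with medians of log2 0.61, 0.41 and 0.36. Of 19 NAC transcription factor genes, 1, 6 and 2 rose. Of 14 heat shock genes, 3, 3 and 4 fell, with medians of log2 -0.25, -0.43 and -0.82. Of 19 storage protein, inhibitor and lipoxygenase genes, 11, 11 and 9 rose, and both tested oleosin genes rose with GmZF351. Of 27 sugar transport genes, 1, 0 and 0 rose and 3, 3 and 5 fell. No gene of the 10 for triacylglycerol assembly or the 11 for fatty acid synthesis passed in any overexpressor. Among 16 fatty acid desaturase genes, 1, 2 and 0 rose and 1, 0 and 0 fell.

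The members without a symbol include the most abundant. Glyma.13G035200 (chromosome 13, 9990949 to 9997473, plus strand, 9 exons) stood at 254, 305 and 271 CPM in the wild type, 1373, 1712 and 1184 CPM in the GmZF351, 1234, 929 and 1118 CPM in the GmZF392 and 974, 1257 and 1228 CPM in the GmNFYA overexpressor. This 1 gene held 109 CPM per kb in the wild type, and the next member, Glyma.05G198000, held 31.9. Its overexpressor libraries overlapped, and its folds were 5.14, 3.95 and 4.17. Those of Glyma.05G198000 were 5.29, 4.35 and 2.29 with GmZF351, GmZF392 and GmNFYA. Further members with a wild-type mean above 14 CPM include Glyma.14G016300, Glyma.18G215600, Glyma.17G030700, Glyma.20G167300, Glyma.13G236500 and Glyma.11G180500. The folds of these listed genes ran from 2.05 (Glyma.18G215600 with GmZF351) to 3.53 (Glyma.14G016300 with GmZF392). Glyma.18G215600 was the steadiest of them, with 21.9 to 23.7 CPM in the wild type and 42.9 to 52.5 CPM in the 9 overexpressor libraries. Glyma.02G296600 had a wild-type mean of 10.5 ± 2.04 CPM and 41.5 ± 14, 55.7 ± 15.9 and 57.1 ± 11.4 CPM in the overexpressors.

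The members were not chosen on the contrast between overexpressors. The limits hold the smallest of the 3 folds from 2 to under 8 and set no upper limit on the largest. Genes under 2-fold in any overexpressor were left out, so the 3 means are not free of the rule. The highest overexpressor mean was under 1.5 times the lowest for 70 members (83.3%), with a median ratio of 1.29, and was 2 times or more for 3 (3.57%). Over the 27374 tested genes with every overexpressor mean at 2 CPM or more, the ratio was under 1.5 for 90.1%, with a median of 1.22, and 2 or more for 1.42%. The mean was highest with GmNFYA for 33 members, with GmZF392 for 30 and with GmZF351 for 21. The same shares over all genes were not computed, so nothing is read from this order. In the edgeR test with Benjamini-Hochberg adjustment over all genes, 77 members passed in none of the 3 pairs, 5 in 1 pair and 2 in 2 pairs. The 7 members that passed in any pair are 8.33%, beside 1.8% of all genes (618). All genes here include those under the limit of 2 CPM, which no member could be. The share over the 27374 genes at that level was not computed, so nothing is read from the difference. A p that misses the threshold does not show equal levels: the quartiles of the members' log2 differences were -0.21 and 0.23 between the zinc finger overexpressors, -0.20 and 0.31 for GmNFYA against GmZF351 and -0.20 and 0.21 for GmNFYA against GmZF392.

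Between the GmZF392 and GmZF351 overexpressors 1 member differed, beside 0.4% of all genes. Between GmNFYA and GmZF351, 6 members differed, beside 1.1% of all genes, with 4 higher with GmNFYA beside 0.593% and 2 lower beside 0.505%. Between GmNFYA and GmZF392, 2 members were higher with GmNFYA, beside 0.263% of all genes, and none was lower; 1.06% of all genes differed in either direction. A test of any difference among the 3 overexpressors called 6 members, beside 1.5% of all genes. The pairs share libraries, so these counts are not independent. The shares of all genes again include genes under the level limit of the rule, so they are no matched background.

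Glyma.03G134800 (chromosome 3, 36204486 to 36207312, plus strand, 3 exons) differed most. It stood at 1.5, 0.839 and 1.73 CPM in the wild type, 2.77, 3.03 and 4.27 CPM in the GmZF351, 5.10, 3.37 and 3.01 CPM in the GmZF392 and 12.5, 10.2 and 10.4 CPM in the GmNFYA overexpressor. The GmNFYA libraries lay above all others without overlap, and the other two overexpressors overlapped. It was higher with GmNFYA than with GmZF351 (log2 1.66, SE 0.25, edgeR adjusted p = 0.00462) and than with GmZF392 (log2 1.55, SE 0.25, adjusted p = 0.00532). Glyma.13G048500 (chromosome 13, 13510124 to 13515813, plus strand, 3 exons) followed the same order, with 7.32, 5.65 and 6.42 CPM, then 14.8, 14.6 and 14.6, then 17.3, 15.3 and 15.6, and 27.6, 25.5 and 28.1 CPM with GmNFYA. Its GmNFYA libraries stood apart from all others, by log2 0.83 (SE 0.13, adjusted p = 0.00468) from GmZF351 and 0.78 (SE 0.13, adjusted p = 0.00540) from GmZF392.

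Glyma.04G186000 (chromosome 4, 44435117 to 44440233, plus strand, 7 exons) went the other way. Its libraries had 12.4, 13.6 and 13.9 CPM in the wild type, 48.7, 38.5 and 45.6 CPM with GmZF351, 41.1, 37.4 and 37.5 CPM with GmZF392 and 29.6, 24.7 and 25.7 CPM with GmNFYA. The GmNFYA libraries lay between the wild type and both zinc finger overexpressors without overlap, lower than GmZF351 by log2 -0.78 (SE 0.12, adjusted p = 0.00521). These 3 genes passed in the named pairs under every one of 18 alternative settings, including the removal of any single library.

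The calls of the other 4 members were lost when some single libraries were left out. Glyma.16G204600 (chromosome 16, 36768187 to 36772499, plus strand, 17 exons) stood at 2.59, 2.96 and 3.30 CPM in the wild type, 16.2, 16.3 and 15.5 CPM with GmZF351, 27.9, 30.6 and 33.4 CPM with GmZF392 and 15.9, 20.2 and 21.4 CPM with GmNFYA. The GmZF392 libraries were above all others (log2 0.85 against GmZF351, SE 0.16, adjusted p = 0.0378). The call was lost without library 2 or 3 of the wild type, any library of the GmZF351 or GmZF392 overexpressors, or library 2 of GmNFYA (edgeR adjusted p from 0.0521 to 0.186). Glyma.11G198300 (chromosome 11, 32736704 to 32739870, plus strand, 3 exons) had 1.09, 1.46 and 1.12 CPM, then 5.69, 3.09 and 2.61, then 6.92, 8.14 and 5.44, and 13.4, 8.24 and 9.64 CPM with GmNFYA. The GmNFYA libraries were the highest, by log2 1.40 over GmZF351 (SE 0.27, adjusted p = 0.0210), and the call was lost without library 2 or 3 of GmZF351 or library 1 or 3 of GmNFYA (adjusted p from 0.0667 to 0.0964).

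NRP-A was higher with GmNFYA than with GmZF351 by log2 0.71 (SE 0.14, edgeR adjusted p = 0.0307). Without library 2 or 3 of the wild type, 3 of GmZF351, 1 or 2 of GmZF392 or any library of GmNFYA its adjusted p was 0.0502 to 0.127. Glyma.05G198000 (chromosome 5, 38224921 to 38225820, plus strand, 2 exons) had 15.6, 21.9 and 22.9 CPM in the wild type, 93.9, 128 and 98.0 CPM with GmZF351, 73.3, 81.2 and 109 CPM with GmZF392 and 32.6, 55.8 and 50.2 CPM with GmNFYA. The GmNFYA libraries were the lowest of the 9, lower than GmZF351 by log2 -1.27 (SE 0.26, adjusted p = 0.0334). Its call was lost without library 2 or 3 of the wild type, 2 or 3 of GmZF351, 1 or 2 of GmZF392 or any library of GmNFYA (adjusted p from 0.0507 to 0.120).

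**Figure D3:**
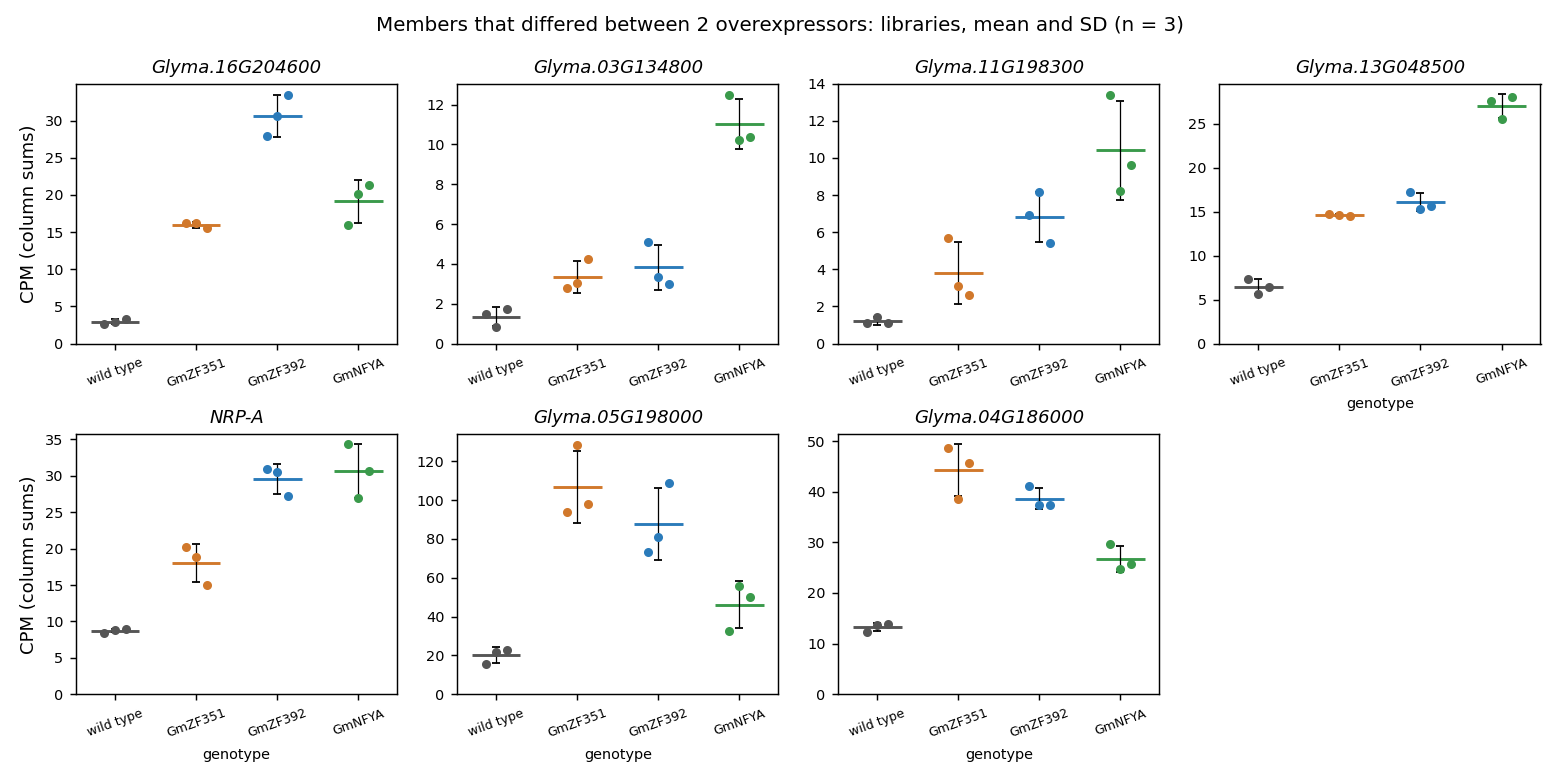
CPM of the 7 members that differed between overexpressors, by genotype as labelled; points are libraries, bars the mean and SD of 3 libraries, and axes start at 0. GmNFYA libraries lie above the GmZF351 libraries in 4 of the panels on which the GmNFYA calls rest and below them in Glyma.05G198000 and Glyma.04G186000; Glyma.16G204600 is highest with GmZF392.

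Libraries differed in how counts were spread over genes of different exon length, and the differences between overexpressors moved with it. Over all tested genes, Spearman's rho between exon length and a library's deviation from its group mean ran from -0.59 (library 2 of GmZF351) to 0.56 (library 1 of GmZF351), and over the 84 members from -0.50 to 0.47. The log2 difference of GmNFYA against GmZF351 had a rho of 0.40 with exon length over all genes and 0.35 over the members; the rho of the members' differences from the wild type was -0.01, 0.11 and 0.23 for GmZF351, GmZF392 and GmNFYA, and that of all genes -0.02, 0.20 and 0.41. With each library's length trend as an offset, a setting chosen after the data were seen, 2, 9 and 6 members were called in the 3 pairs, beside 0.756%, 2.23% and 1.63% of all genes, and 9 for any difference, beside 2.79%. The 9 calls above all stayed past the threshold, but the differences moved. For GmNFYA against GmZF351, log2 went from -1.27 to -0.94 in Glyma.05G198000 and from 0.83 to 0.69 in Glyma.13G048500. It went from 0.71 to 0.60 in NRP-A and, away from 0, from -0.78 to -0.92 in Glyma.04G186000. The added genes were Glyma.09G173400, Glyma.12G073000, Glyma.12G142900 and Glyma.11G253300, with Glyma.04G186000, Glyma.05G198000 and Glyma.16G204600 called in a further pair. DESeq2 called 4, 8 and 6 members in the 3 pairs, beside 1.05%, 2.79% and 2.06% of all genes, and 10 in the test of any difference, beside 3.1%.

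A property that the rule did not use set the members apart in the table. Of the 84 genes, 43 (51.2%) have a single exon in the annotation, against 14.6% of all genes tested and 12.4% of those with a group mean of 2 CPM or more. The share was 27.5% among 40 genes moderately lower in all 3 overexpressors by the mirrored rule, and 33.3% among 9 genes that were 8-fold or more higher in all 3. No test of this share was made. The single-exon members include SRC2, SCOF-1, HS1pro1 and GER8 of the named genes and Glyma.14G016300, Glyma.17G030700, Glyma.20G167300, Glyma.13G236500, Glyma.11G180500 and Glyma.02G296600 of the abundant ones. Their exon length ran from 454 to 4343 bases (median 1498), against 486 to 6714 bases (median 2135) in the other members.

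**Figure D4:**
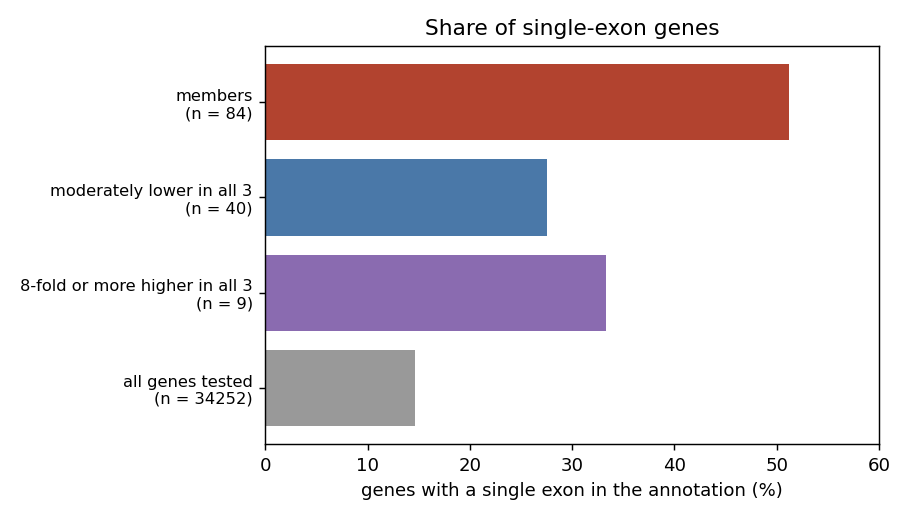
Percent of genes with a single exon in the annotation among the 84 members, the 40 genes moderately lower in all 3 overexpressors, the 9 genes 8-fold or more higher in all 3 and all 34252 genes tested; bars start at 0 and have no error, as each is a count over a whole set. The members have the largest share, 51.2% against 14.6% of all genes tested.

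The single-exon and the other members are set side by side here. Median folds were 2.74, 2.95 and 2.74 in the single-exon members and 2.78, 3.12 and 3.40 in the others, for GmZF351, GmZF392 and GmNFYA. All 7 members that differed between overexpressors have more than 1 exon (7 of 41), and 0 of the 43 single-exon members did, while over all tested genes the share called in any pair was 2.74% with 1 exon and 1.64% with more. With the length offset, 2 single-exon members passed in a pair (Glyma.11G253300 and Glyma.12G142900) and 9 of the others, and by DESeq2 2 single-exon members passed (Glyma.01G010500 and Glyma.09G042400) and 10 of the others. This division was noticed in the values and was not tested.

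The members lay on all 20 chromosomes. Chromosome 13 held 11 (13.1%, against 6.95% of tested genes) and chromosome 18 held 8 (9.52%, against 4.91%). Of the 84 members, 18 (21.4%) lay within 500 kb of one of the 53 genes that were lower in all 3 overexpressors. The share of all tested genes was 6.98%. They were 14 of the 41 members with more exons (34.1%) and 4 of the 43 single-exon members (9.30%). Among tested genes these shares were 6.87% with more exons and 7.59% with 1. Within 500 kb of the 9 genes 8-fold or more higher in all 3 lay 5 of the 84 members (5.95%), against 0.747% of all tested genes. They were 5 of the 41 (12.2%), beside 0.749% of tested genes with more exons, and 0 of the 43. The division by exons was noticed in the values, and the distance of 500 kb was not part of the rule. Genes that lie together are not independent, and no test was made.

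Some members lay beside one another. On chromosome 8, Glyma.08G317400 (43088286 to 43092542), Glyma.08G317700 (43107450 to 43113250) and Glyma.08G318000 (43124431 to 43128773), all on the minus strand, are separated by 14.9 and 11.2 kb. Their wild-type means were 1.69 ± 0.405, 0.885 ± 0.325 and 1.78 ± 0.510 CPM, and their overexpressor means lay between 3.38 and 5.17 CPM, with folds from 2.22 to 4.22. None was paired with a RefSeq gene. On chromosome 1, Glyma.01G043400 and Glyma.01G043951 are 63.7 kb apart, and on chromosome 13, Glyma.13G153200 and Glyma.13G154000 are 93.3 kb apart; both pairs lie farther apart than the 50 kb of the naming rule and were chosen after their values were seen. Of these 4, Glyma.01G043951 had folds of 7.69, 9.44 and 9.89, from 1.04, 0.618 and 0.670 CPM in the wild type to 4.04 to 9.95 CPM in the overexpressor libraries. Glyma.13G153200 had 5.97, 6.75 and 6.96, Glyma.13G154000 had 4.88, 5.64 and 4.72 and Glyma.01G043400 had 2.53, 2.67 and 3.46.

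Members also lay near RJ2. Glyma.16G211200 (chromosome 16, 37231040 to 37235485, plus strand, 4 exons) ends 43.2 kb before RJ2 and had 0.467, 0.221 and 0.670 CPM in the wild type, 3.54, 1.28 and 3.04 CPM with GmZF351, 4.19, 4.38 and 1.51 CPM with GmZF392 and 5.75, 3.84 and 1.89 CPM with GmNFYA. As in RJ2, library 2 of GmZF351 and library 3 of GmZF392 were the lowest of their genotypes. Over all tested genes, these libraries also had the most negative rho between exon length and deviation from the group mean (-0.59 and -0.52). The part of that trend in the likeness of these genes was not tested. In the 516 kb from Glyma.16G204600 to RJ2 there were 59 tested genes. They included these 3 members, Glyma.16G211400, which had at most 0.0559 CPM in a wild-type library and means of 10.6, 14 and 12.4 CPM in the overexpressors, and Glyma.16G206100, which fell from a wild-type mean of 141 CPM to 8.11, 6.51 and 5.08 CPM. In this stretch 7, 8 and 5 of the 59 genes rose with GmZF351, GmZF392 and GmNFYA, beside 1.13%, 1.67% and 0.966% of all genes tested. In each overexpressor 1 fell, beside 1.05%, 0.528% and 0.599%. The stretch was drawn from member to member, so these counts are not independent of how it was chosen. The median log2 difference in it was 0.13, -0.02 and 0.03. Most genes of the stretch thus stood near the wild-type level between the few that differed.

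**Figure D5:**
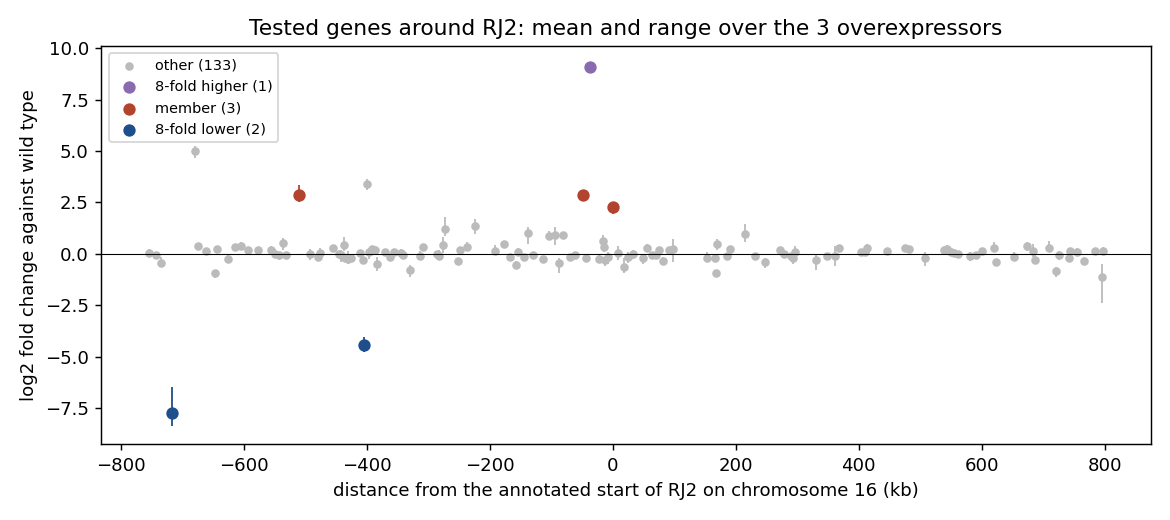
Log2 fold change against the wild type of tested genes within 800 kb of RJ2 on chromosome 16, plotted by distance in kb from its annotated start; points are the mean and lines the range over the 3 overexpressors, coloured by class. The 3 members (red), the gene 8-fold higher (purple) and the 2 genes 8-fold lower (blue) stand among 133 other genes, most of them near 0; some grey genes with large positive values missed the rule.

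Directly beside the members, outside the set, were 116 tested genes. Of these, 6 (5.17%) had all 9 overexpressor libraries above all 3 wild-type libraries, against 1.69% of all tested genes. The spans of Glyma.08G123400, Glyma.08G260500, Glyma.13G043700 and Glyma.18G215600 overlap that of another annotated gene. The recorded counting command names no option for strand or for overlapping genes, so reads from exons that both genes share cannot be credited to either. Glyma.08G123400 and its partner lie on the same strand. The overlapping partners reached group means of 3.51, 0.158, 1.47 and 0.329 CPM. Close copies of a gene can share reads, and how the aligner divided them was not analysed here.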

How the data were processed

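RNA of 12 seed libraries (4 genotypes, 3 libraries each) was analysed from the authors' deposited table of raw counts per gene. Per the file headers, the counts were made with featureCounts 2.0.1 on paired fragments, summing exons by gene in the annotation Gmax_508_Wm82.a4.v1, with no option named for strand, multimapping or overlapping genes; per the submitters' processing notes, HISAT2 and DESeq2 were also used, with no version given. Printed levels are CPM computed from column sums, as mean ± SD of 3 libraries. For a gene with no reads the limit is 3 counts, or 0.132 to 0.168 CPM by library; it covers counting error only.

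A single fit of the 12 libraries was made in edgeR 4.0.16 (R 4.3.3), with the quasi-likelihood F-test in robust mode, TMM scaling and filterByExpr set to at least 10 counts and 15 in total, with Benjamini-Hochberg adjustment over 34252 genes and a threshold of 0.05. "Rose" and "fell" mean past this threshold; adjusted p-values in the report come from this fit unless another is named. The fit was tested on simulated data. DESeq2 1.42.0, other scalings, no filter, a replicate block, each library left out and, added after the data were seen, an offset for each library's trend with exon length were the alternatives.

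Symbols were taken from RefSeq genes of Glycine_max_v4.0 whose span shared 50% or more of the joint span with a gene (38292 genes, 81.3%, were paired). Which loci are GmZF351 and GmZF392 is known from the study, not from the labels. Lists and families were formed from symbols alone, so members of a family without a symbol were not counted. The members and lists were chosen with earlier results of these data known. Genes are named by a rule: members with a symbol, the 10 most abundant in the wild type and in the overexpressors, those that differed most between overexpressors, the 3 nearest each threshold and members within 50 kb of another. A further member with a symbol is not reported here.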

Additional observations from a re-analysis of the deposited data

How the results depend on the processing

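The number of members followed the fold of the rule, with 194 genes at a fold of 1.5 and 26 at a fold of 3 in place of 84 at 2. It was 77 to 94 when any single library was left out, and 57 to 106 under the other settings of level, offset, scaling and overlap. With DESeq2, the members that differed between overexpressors numbered 4 for GmZF392 against GmZF351 and 6 for GmNFYA against GmZF392, and 10 in the test of any difference, in place of 1, 2 and 6. With the exon-length offset they numbered 2 and 6 in these pairs. When 1 library was left out, the counts ranged from 0 to 1 for GmZF392 against GmZF351, 3 to 7 for GmNFYA against GmZF351, 2 to 3 for GmNFYA against GmZF392 and 2 to 5 for any difference. The count of 0 came without library 2 or 3 of the wild type, any library of GmZF351 or GmZF392, or library 2 of GmNFYA, and that of 3 without library 1 or 3 of GmNFYA. For any difference, the count was 2 without library 2 of GmNFYA and 3 without library 2 of the wild type, 3 of GmZF351, 1 or 2 of GmZF392 or 3 of GmNFYA. The cause was not tested. Against the wild type, 62 to 81, 63 to 80 and 57 to 79 members were called without 1 library, for GmZF351, GmZF392 and GmNFYA. Of 162 values of single members in a pair under an alternative, 132 stayed past the threshold, 30 did not and 0 changed direction. Libraries of the same replicate number were not alike throughout: 7 of 18 same-numbered pairs of libraries had a correlation above 0.1 (range -0.50 to 0.42). Whether the numbers mark shared batches cannot be told from this, because the libraries' deviations from their group means also moved with exon length. The fit with the replicate block called 1, 6 and 3 members between overexpressors, 6 for any difference and 80, 77 and 74 against the wild type. Members near 2 CPM rest on few counts per library, which limits what could be detected between overexpressors.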
